A study of Mus musculus with 17 samples.

Results

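miR-455 is a microRNA (miRNA) hairpin whose 2 mature arms, miR-455-3p and miR-455-5p, were each read by 1 assay of a serum real-time PCR panel. The assays mmu-miR-455-3p and mmu-miR-455-5p are 2 of 357 miRNA assays, and both were detected in all 17 mice. The pair was selected on the difference in Ct between tumor and tumor-free mice in these same data, where miR-455-3p stood out, so that difference is described without a test. The tumor group was 7 mice of the Autotaxin transgenic line AT-ATX that bore tumors. The tumor-free group was 7 AT-ATX mice without tumors. The wild-type group was 3 healthy FVB/N mice. Age, tumor site, the promoter of the transgene and the strain of the AT-ATX mice are not given in the sources used here, and no treatment is named. Each sample is named as 1 mouse. Tumor replicate 5 has a question mark in its label and was used as labelled.

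An miRNA hairpin is cut into a short duplex of its 2 arms, and usually 1 arm is loaded into an Argonaute protein and kept while the other is degraded. The loaded arm pairs with messenger RNAs through its seed, bases 2 to 8, and lowers their translation or stability. The hairpin of miR-455 is known as an intronic miRNA of Col27a1, the gene of a fibrillar collagen chain of cartilage, and in mice it is known from cartilage development and from brown fat formation. The product of secreted Autotaxin, lysophosphatidic acid, is a lipid that cells sense through receptors. In serum, miRNAs come from blood cells and from tissues that release or lose RNA, and less release and less RNA per releasing cell cannot be told apart.

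The mature sequences from RefSeq (GRCm38.p6) are shown because the 2 assays read different arms of the same precursor and therefore different seeds, which are in capitals.
miR-455-5p: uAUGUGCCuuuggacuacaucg
miR-455-3p: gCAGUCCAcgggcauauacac
Both lie on the plus strand of chromosome 4, the 5p arm at chr4:63256867-63256888 and the 3p arm at chr4:63256904-63256924, with 15 bases between them. The precursor gene Mir455 (82 bases, chr4:63256851-63256932) starts 42842 bases inside Col27a1 (chr4:63214009-63334991), on the same strand. Exon coordinates were not used here. The 5p arm has 22 bases, of which 45.5% are G or C, and the 3p arm has 21 bases, of which 57.1% are. A predicted duplex of the 2 arms (RNAduplex) joined bases 1 to 19 of each by 16 pairs at -22.3 kcal/mol. None of the other panel miRNAs with a RefSeq sequence shared either seed. Over all RefSeq mouse miRNAs, only miR-5129-3p shared the seed of the 5p arm and none shared that of the 3p arm.

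The deposited values are quantification cycles (Ct), where fewer cycles mean more template. A level here is a panel mean Ct, over the 252 assays that no mouse lacked, minus the Ct of the assay itself. It is on a log2 scale, so 1 unit stands for a change of 2 times if every cycle doubles the product. It is relative to the panel and not an amount per volume of serum. Between 312 and 356 miRNA assays were detected per mouse. The panel mean was at a Ct of 29.8 ± 1.18 (SD, n = 7) in tumor mice, 29.4 ± 0.83 (n = 7) in tumor-free mice and 28.4 ± 1.50 (n = 3) in wild-type mice. The usual serum miRNAs were found in all 17 mice. Mean levels were 10.2 for miR-451a and 9.58 for miR-16-5p, both of erythrocytes, 7.36 for the liver's miR-122-5p and 5.68 for the myeloid miR-223-3p.

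The Ct of miR-455-3p in tumor replicates 1 to 7 was 35.03, 32.13, 35.17, 34.53, 32.95, 32.69 and 29.19. It was 27.32, 31.95, 29.38, 29.20, 32.10, 29.83 and 30.69 in tumor-free replicates 1 to 7, and 26.25, 28.91 and 29.39 in the wild-type mice. Tumor replicates 1 and 3 thus lay just above 35 cycles, while no tumor-free or wild-type mouse did. The Ct of miR-455-5p was 35.07, 34.16, 33.99, 34.72, 31.99, 33.78 and 30.69 in the tumor mice. It was 31.08, 34.06, 31.59, 31.32, 33.75, 31.53 and 31.50 in the tumor-free mice, and 28.12, 31.25 and 32.07 in the wild-type mice. In the 14 transgenic mice and the 3 wild-type mice alike, no value of either arm was missing.

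As a level, miR-455-3p was -3.35 ± 1.43 (SD, n = 7) in tumor mice, -0.67 ± 0.95 (n = 7) in tumor-free mice and 0.19 ± 0.83 (n = 3) in wild-type mice. Its lowest, median and highest levels were -5.40, -3.36 and -1.24 with tumors. They were -1.78, -0.67 and 0.81 in tumor-free mice and -0.77, 0.59 and 0.75 in wild-type mice. The highest tumor mouse, replicate 7, lay inside the tumor-free range, and the other 6 lay below all tumor-free mice. Of the 338 assays detected in at least 2 wild-type, 5 tumor-free and 5 tumor mice, the 3p arm ranked 229th by mean level in tumor mice, 133rd in tumor-free mice and 105th in wild-type mice. Assays may differ in efficiency, so these ranks describe signal on this panel.

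miR-455-5p differed less between the groups. Its level was -3.73 ± 0.61 (SD, n = 7) in tumor mice, -2.73 ± 0.65 (n = 7) in tumor-free mice and -2.11 ± 0.99 (n = 3) in wild-type mice. The lowest, median and highest levels were -4.46, -4.02 and -2.74 with tumors, -3.56, -2.87 and -1.98 in tumor-free mice, and -3.11, -2.09 and -1.12 in wild-type mice. The tumor and tumor-free ranges overlapped, and 4 tumor mice lay under the lowest tumor-free mouse. The 5p arm ranked 246th, 207th and 183rd of the 338 assays in the same order of groups. Both arms thus had the same order of group means, lowest with tumors and highest in wild type, and for both the tumor-free and wild-type ranges overlapped.

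**Figure D1:**
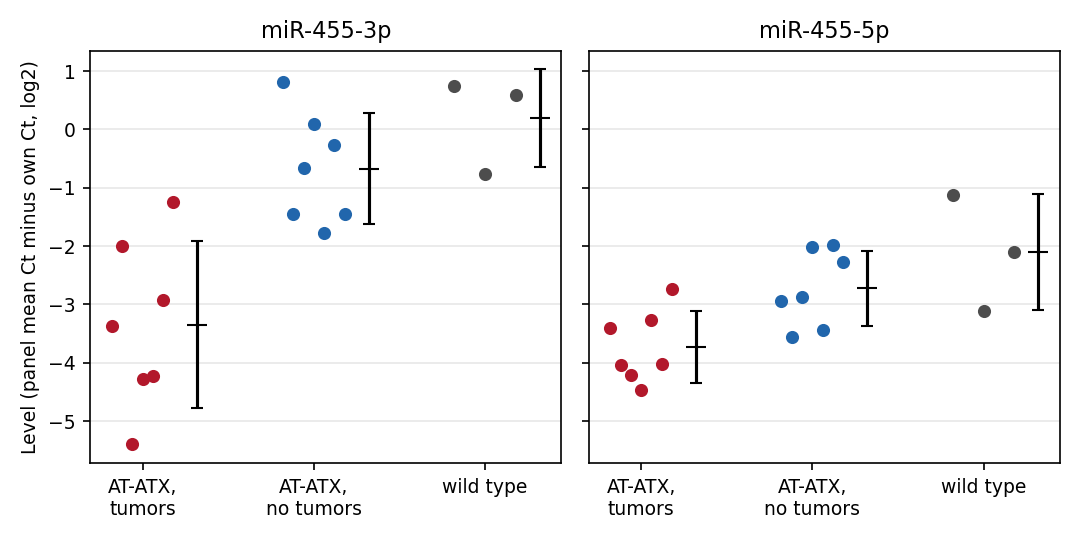
Level of miR-455-3p (left) and miR-455-5p (right) in each mouse, as panel mean Ct minus own Ct on a log2 scale. Points are mice, and the bar beside each group is its mean and SD (n = 7, 7 and 3). In the left panel 6 of 7 tumor mice sit below all tumor-free mice, and in the right panel 4 of 7 do.

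The comparison of tumor with tumor-free transgenic mice asked which serum miRNAs differ with tumors. Tumor minus tumor-free, miR-455-3p differed by -2.67 (6.37-fold lower in tumor mice) and miR-455-5p by -1.01 (2.01-fold lower). Among the 338 assays the 3p arm had the lowest difference and the 5p arm the 36th lowest, with a median over all assays of 0.14. The share of assays called in this comparison by limma's moderated test (Benjamini-Hochberg adjusted p under 0.05) was 1.48%, or 5 of 338 (1.18% lower and 0.296% higher). In 0.888% the 2 groups did not overlap and tumor was the lower. The share in which at most 1 tumor mouse was not below the tumor-free range was 2.37%. Nothing is read from these counts, since this comparison chose the arms. Just inside the threshold on adjusted p lay the rat assay of miR-802-5p at -2.15 and miR-339-3p at 1.15, and just outside lay miR-1900 at -2.39 and miR-322-5p at 1.34.

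The other 2 comparisons did not choose the arms, but they share mice with the one that did, and with each other, so their p-values are not independent of that choice. Tumor minus wild type, miR-455-3p fell by 3.54 (SE 0.75, 95% interval -5.11 to -1.97, 11.6-fold lower in tumor mice, limma adjusted p = 0.00776). All 7 tumor mice lay below all 3 wild-type mice, and the difference was larger than the SD of either group, though smaller than the range of the tumor mice. In this comparison 8.28% of the 338 assays were called, 4.14% as lower, and in 3.85% all tumor mice lay below all wild-type mice. With raw Ct the median assay was at -1.22 and miR-455-3p at -4.92 (adjusted p = 0.0153), which is -3.70 from that median, against -3.73 on the level scale. Scaling shifts all assays of a mouse alike, so these distances are near equal by construction. On the level scale 14 assays were called lower and 14 higher in tumor mice, while with raw Ct 15 were called lower and 0 higher. The call of the 3p arm was lost without wild-type replicate 3 (adjusted p = 0.0527). It was also lost with exact permutation per assay (unadjusted p = 0.00833, the smallest that 7 against 3 mice can give, adjusted p = 0.201), by which 0 of the 338 assays passed and 45 had an unadjusted p under 0.05. With the other assays as they were, no values of the 3p arm could have kept its call in this test.

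For miR-455-5p the same comparison gave -1.62 (SE 0.52, 95% interval -2.70 to -0.55, 3.08-fold lower in tumor mice), which did not pass (limma adjusted p = 0.0542). Of the tumor mice 6 of 7 lay below all wild-type mice, as they did, or all 7 did, in 6.21% of assays. The call was gained without wild-type replicate 2 (-2.13, adjusted p = 0.0346) or tumor replicate 5 (-1.70, adjusted p = 0.0454) or 7 (-1.79, adjusted p = 0.0323).

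Without tumors, the transgenic mice were set against wild type, and neither arm passed. miR-455-3p differed by -0.87 (SE 0.75, 95% interval -2.43 to 0.70, limma adjusted p = 0.489) and miR-455-5p by -0.62 (SE 0.52, 95% interval -1.70 to 0.46, adjusted p = 0.465). In this comparison 0.592% of assays were called, 0.296% in each direction. Of the tumor-free mice 3 of 7 lay below all wild-type mice for the 3p arm and 2 of 7 for the 5p arm, and all 7 did so in 5.92% of assays. With 3 wild-type mice the intervals are wide and include both no difference and a lower level in tumor-free mice. Without wild-type replicate 1 the 5p difference was -0.12, and without wild-type replicate 2 it was -1.12. For the 3p arm the same 2 mice gave -0.59 and -1.35.

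How much the 2 arms moved apart can be read within each mouse, as the 3p level minus the 5p level, which does not depend on the scaling between mice. This arm difference was 0.03, 2.03, -1.19, 0.19, -0.96, 1.09 and 1.50 in tumor replicates 1 to 7. It was 3.75, 2.11, 2.20, 2.12, 1.66, 1.70 and 0.82 in tumor-free replicates 1 to 7 and 1.87, 2.34 and 2.68 in the wild-type mice. The 5p assay thus gave the earlier Ct in tumor replicates 3 and 5 and in no other mouse. Because the 2 assays may differ in efficiency, only the changes in this difference between mice are comparable, not its sign.

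The mean arm difference was 0.39 ± 1.22 (SD, n = 7) in tumor mice, 2.05 ± 0.89 (n = 7) in tumor-free mice and 2.30 ± 0.41 (n = 3) in wild-type mice. Tumor minus tumor-free it was -1.67, a ratio of the arms 3.17 times lower in tumor mice, given without a test. Tumor minus wild type it was -1.91 (exact two-sided permutation p = 0.0333, adjusted p = 0.0667 over 2 comparisons, smallest possible p = 0.00833), with 6 of 7 tumor mice below all wild-type mice, which did not pass after adjustment. Tumor-free minus wild type it was -0.25 (exact permutation p = 0.633, adjusted p = 0.633). In the 13 mice whose deposited values have 2 endings, the arms fall in different sets of endings, taken here as the plates. A difference between plates within a sample would then enter the arm difference, and its part was not tested.

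**Figure D2:**
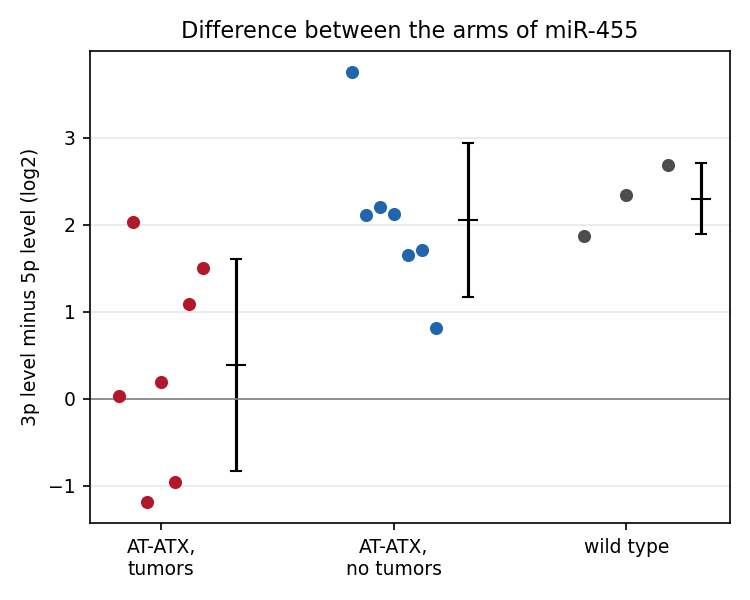
Level of miR-455-3p minus that of miR-455-5p in each mouse (log2). Points are mice, and bars are the mean and SD (n = 7, 7 and 3). The tumor mice spread from -1.19 to 2.03, the tumor-free mice from 0.82 to 3.75 and the wild-type mice from 1.87 to 2.68.

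Both arms of a hairpin were tested for 62 mouse hairpins of the panel. Tumor minus tumor-free, both arms were below 0 in 19 of them and above 0 in 24. Both were lower by at least 1 in 3 hairpins, miR-455, miR-31 (-1.63 for 3p and -1.43 for 5p) and miR-33 (-1.06 and -1.27). By the size of the change in arm difference, miR-455 was 2nd of 62, against a median of -0.13. These are descriptions of the comparison that chose miR-455, and miR-31, miR-33 and miR-192 were named after their values were seen.

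**Figure D3:**
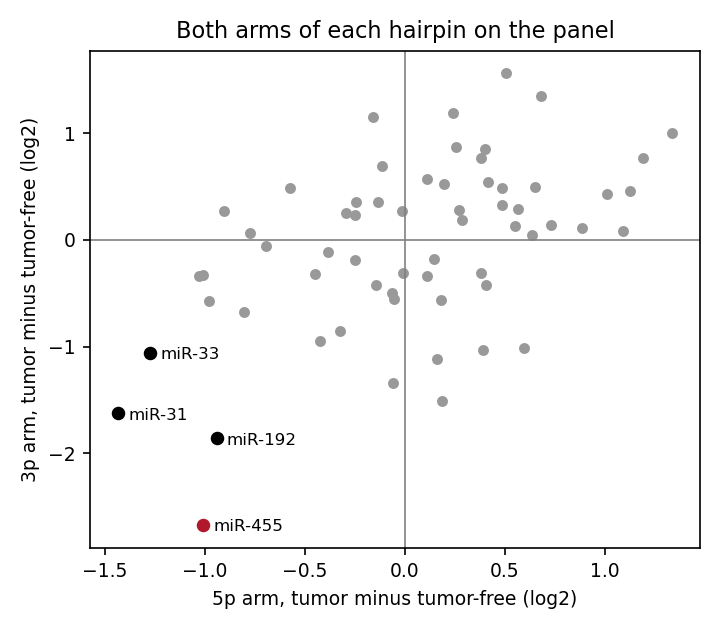
Difference of the 5p arm (horizontal) and of the 3p arm (vertical) between tumor and tumor-free mice (log2) for 62 hairpins with both arms tested. Each point is a hairpin. miR-455 (red) lies lowest on the vertical axis at -2.67, with -1.01 on the horizontal axis, and miR-31, miR-33 and miR-192 are marked in black.

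Variation between mice of the same group was not used to choose the arms. With each group's mean taken off, the levels of the 2 arms were set against each other over the 17 mice (r = 0.52 and rho = 0.55; permutation p = 0.0345 for r and 0.0343 for rho, 0.0575 and 0.0572 once adjusted over 5 relations), which did not pass after adjustment. Without the 2 mice farthest from the median of the 3p level, r was 0.43. Within the tumor mice r was 0.53, and within the tumor-free mice it was 0.43 (n = 7 each). With raw Ct r was 0.85, a value that includes the total amount of miRNA in each serum. For all 62 hairpins the median r between arms was 0.42 for levels and 0.80 for raw Ct, and miR-455 ranked 23rd by levels. The hairpins at the ends of that order were let-7i (0.95), miR-199a (0.93) and miR-28a (0.89), and let-7d (-0.58), let-7b (-0.46) and miR-744 (-0.45). The coupling of the arms of miR-455 was therefore near the middle of the panel.

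**Figure D4:**
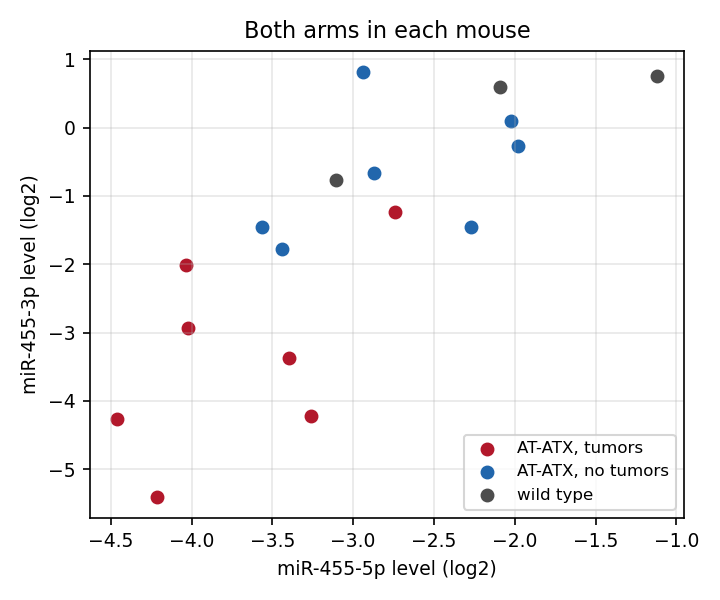
Level of miR-455-3p (vertical) against miR-455-5p (horizontal) in each of the 17 mice (log2), coloured by group. The tumor mice lie toward the lower left, except for tumor replicate 7 (-2.74 on the horizontal and -1.24 on the vertical axis), which lies among the tumor-free mice.

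Both arms went with the state of the serum. A hemolysis index, by how many cycles miR-451a came before miR-23a-3p, is higher where more red blood cell RNA is present. It was 3.97 ± 1.97 cycles (SD, n = 7) in tumor mice, 4.38 ± 0.84 (n = 7) in tumor-free mice and 5.61 ± 2.07 (n = 3) in wild-type mice. Within groups, the level of miR-455-3p was lower where the index was higher (r = -0.72 and rho = -0.68; permutation p = 0.00422 for r and 0.00851 for rho, 0.0105 and 0.0213 once adjusted). The same held for miR-455-5p (r = -0.72 and rho = -0.68; permutation p = 0.00279 for r and 0.00834 for rho, 0.0105 and 0.0213 once adjusted). Without the 2 mice farthest from the median of the index, r was -0.73 for the 3p arm and -0.59 for the 5p arm. Within the tumor mice r was -0.80 for the 3p arm and -0.58 for the 5p arm, and within the tumor-free mice it was -0.44 and -0.91. Levels are relative to a panel mean that also holds red blood cell miRNAs. With raw Ct (sign turned, so that higher means more), r was -0.53 for the 3p arm (permutation p = 0.0482) and -0.43 for the 5p arm (permutation p = 0.149).

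The arm difference did not show such a relation past the threshold with the index (r = -0.34 and rho = -0.22; permutation p = 0.24 for r and 0.443 for rho, 0.3 and 0.554 once adjusted). Nor did it with the panel mean Ct (r = -0.13 and rho = -0.08; permutation p = 0.643 for r and 0.773 for rho, 0.643 and 0.773 once adjusted). Without the 2 mice farthest from the median of the index, r was -0.46. Without the 2 farthest from the median of the panel mean Ct, it was -0.18. With the index as a covariate in the limma fit, which was added with the data already seen, tumor minus tumor-free was -2.89 for the 3p arm and -1.13 for the 5p arm. Those of tumor from wild-type mice became -4.39 (adjusted p = 0.000139) and -2.13 (adjusted p = 0.00375), so the 5p arm passed there. The tumor minus tumor-free values come from the comparison that chose the arms and are given without a test. The part of hemolysis in either comparison was not tested.

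The assays most like each arm over the mice, by Pearson's r with group means taken off among 317 assays, differed between the arms. The 5 most like miR-455-3p were miR-206-3p (r = 0.90, n = 16 mice), miR-1a-3p (0.90, n = 17), miR-133b-3p (0.90), miR-133a-3p (0.90) and miR-29c-5p (0.87). The first 4 are miRNAs of skeletal or heart muscle, and the last is the minor arm of a hairpin of the miR-29 family. Without the 2 mice farthest from the median of the 3p level, these values were 0.82 to 0.91. They were 0.89 to 0.94 within the tumor mice and 0.81 to 0.85 within the tumor-free mice, and 0.92 to 0.94 with raw Ct. All 5 also went with the hemolysis index, with r from -0.78 to -0.64, and the part of hemolysis in their likeness to the 3p arm was not tested.

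None of these 5 was called between tumor and tumor-free mice, where 1.48% of all assays were. miR-133a-3p was 2.37 ± 2.91 (SD, n = 7) in tumor mice and 2.57 ± 1.69 (n = 7) in tumor-free mice, a difference of -0.21 (limma adjusted p = 0.921). Its lowest level was -0.30 with tumors and 0.10 without, and its highest was 7.18 with tumors and 4.66 without. miR-133b-3p differed by -0.02 (adjusted p = 0.993), miR-1a-3p by -0.78 (adjusted p = 0.772), miR-206-3p by 0.85 (adjusted p = 0.772) and miR-29c-5p by -0.38 (adjusted p = 0.707). Tumor replicates 7 and 2 had the highest miR-133a-3p of all mice, 7.18 and 5.63, and also the 2 highest levels of miR-455-3p in the tumor group.

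**Figure D5:**
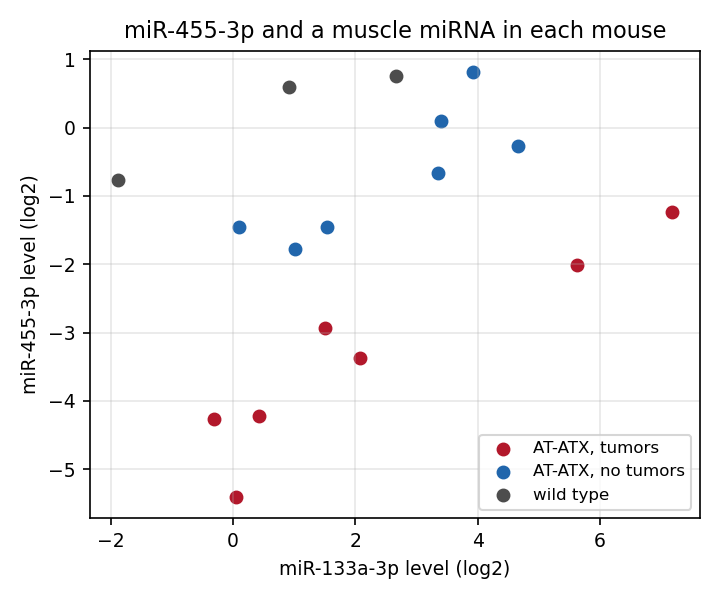
Level of miR-455-3p (vertical) against that of the muscle miRNA miR-133a-3p (horizontal) in each mouse (log2), coloured by group. Within tumor and tumor-free mice the 2 rise together, and the tumor mice lie lower on the vertical axis.

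The 5 most like miR-455-5p were miR-28a-5p (r = 0.85), miR-378a-3p (0.81), miR-199a-3p (0.81), miR-125b-5p (0.80) and miR-365-3p (0.78), each over 17 mice. miR-378a-3p is encoded in an intron of Ppargc1b, a regulator of mitochondrial genes. miR-199a-3p is abundant in fibroblasts and is also among the platelet and megakaryocyte markers used below. Without the 2 mice farthest from the median of the 5p level the 5 values were 0.70 to 0.79. These 5 also went with the hemolysis index, with r from -0.92 to -0.50. The part of hemolysis in their likeness to the 5p arm was not tested. None of the 5 assays was called between tumor and tumor-free mice, where 1.48% of all assays were (differences from -1.03 to 0.35, limma adjusted p from 0.423 to 0.842). The other arm of miR-455 ranked only 67th of 317 by likeness to the 3p arm and 69th by likeness to the 5p arm.

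Other miRNAs known with miR-455 from cartilage, fibroblasts, brown fat or the liver were read from lists. These lists were chosen with earlier results of these data known. Of 11 cartilage and fibroblast miRNAs tested, 0 passed between tumor and tumor-free mice in either direction, where 1.48% of all assays did. Of the 11, 8 were below 0, and the median was -0.21 against 0.14 over all assays. The most abundant, miR-140-3p of cartilage, was 4.27 ± 0.96 (SD, n = 7) in tumor mice and 4.08 ± 0.68 (n = 7) in tumor-free mice, and miR-29a-3p, which targets collagen messenger RNAs, differed by 0.23 (SE 0.37, limma adjusted p = 0.784). Against wild type 1 of the 11 passed in tumor mice, miR-29a-3p, which rose by 1.63 (SE 0.47, limma adjusted p = 0.039), and 0 in tumor-free mice. Over all assays 4.14% were called higher for tumor and 0.296% for tumor-free mice. The call of miR-29a-3p was lost at equal hemolysis index (1.16, adjusted p = 0.055), with reference miRNAs (1.37, adjusted p = 0.255), with spike-ins (0.36, adjusted p = 0.853) and with raw Ct (0.25, adjusted p = 0.884). With spike-ins and with raw Ct 0 of the 338 assays were called higher in that comparison. The median assay stood at -1.08 and -1.22 there. The list's median was 0.89 for tumor and 1.07 for tumor-free mice against wild type, with 0.19 and 0.03 over all assays. It lay on the other side of 0 from miR-455. In each comparison 9 of the 11 were above 0. The 2 below 0, as miR-455 was, were the arms of miR-140. miR-140-3p stood at -1.13 for tumor and -1.32 for tumor-free mice, and miR-140-5p at -0.65 and -0.93 (limma adjusted p from 0.187 to 0.439). With raw Ct the list's median for tumor mice was -0.49, where the median over all assays was -1.22. With spike-ins it was -0.38 against -1.08 over all assays, and for tumor-free mice -0.07 against -1.19. At equal index it was -0.11 for tumor mice, against 0.05 over all assays. With raw Ct and spike-ins the list thus stayed above the median assay, since scaling shifts all assays of a mouse alike. Within groups the mean level of the list had r = 0.77 with the 3p arm and 0.72 with the 5p arm. Of 13 miRNAs of brown fat and its control, 0 passed in any of the 3 comparisons. Over all assays 1.48% passed for tumor minus tumor-free, 0.592% for tumor-free minus wild type and 8.28% for tumor minus wild type. With raw Ct miR-30c-5p fell in tumor against wild-type mice (-3.22, limma adjusted p = 0.0435), and at equal hemolysis index miR-328-3p rose in tumor against tumor-free mice (0.92, adjusted p = 0.0358). The medians of the 13 were -0.21 (tumor minus tumor-free), 0.43 (tumor-free minus wild type) and 0.28 (tumor minus wild type). The last 2 were -0.59 and -1.10 with raw Ct, where those over all assays were -1.07 and -1.22. The mean level of this list, which holds miR-133a-3p and miR-133b-3p, had r = 0.82 with the 3p arm and 0.62 with the 5p arm. The most abundant, miR-30b-5p and miR-30c-5p, were 3.87 ± 1.26 and 3.61 ± 1.62 (SD, n = 7) with tumors, and their differences from tumor-free mice were -0.78 and -0.99 (adjusted p = 0.429 and 0.423).

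The liver list ran in the same direction as miR-455. It was chosen with earlier results of these data known, so its counts are descriptions only. Of its 8 tested miRNAs 2 fell in tumor against tumor-free mice, with 7 below 0 and a median of -1.16 against 0.14 over all assays, of which 1.18% were called lower. They were miR-802-5p at -1.99 (SE 0.37, limma adjusted p = 0.0105) and miR-192-3p at -1.86 (SE 0.37, adjusted p = 0.0128). With raw Ct, spike-ins or reference miRNAs neither passed (differences from -2.35 to -1.98, adjusted p from 0.0605 to 0.639). Under each of these scalings 0 of the 338 assays were called in this comparison. Against wild type 5 of 8 fell in tumor mice and 0 of 8 in tumor-free mice, with medians of -1.66 and -0.57. Over all assays 4.14% were called lower for tumor and 0.296% for tumor-free mice, and the medians were 0.19 and 0.03. The 5 were miR-802-5p (-2.26), miR-192-3p (-2.37), miR-194-5p (-2.56), miR-192-5p (-1.57) and miR-101b-3p (-1.57), of which 4 passed with raw Ct and 1 with spike-ins. Over all 338 assays 15 were called lower with raw Ct and 8 with spike-ins. The hepatocyte miRNA miR-122-5p, the most abundant of the list, was 6.38 ± 1.43 (SD, n = 7) in tumor mice and 8.01 ± 0.60 (n = 7) in tumor-free mice (limma adjusted p = 0.123). The next, miR-192-5p, differed by -0.94 (adjusted p = 0.12). Within groups the mean level of the list had r = 0.14 with the 3p arm and 0.47 with the 5p arm. All these r are descriptions over 17 mice that share a panel mean.

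Marker miRNAs of what serum can hold are set beside these results. The mean level of 4 hepatocyte markers ranged from 2.03 to 3.98 in tumor mice, 3.77 to 4.96 in tumor-free mice and 4.19 to 5.65 in wild-type mice. Between tumor and tumor-free mice 4 of 4 were below 0 and 1 passed, where 1.18% of all assays were called lower. Against wild type 3 passed as lower in tumor mice, where 4.14% of all assays were. All 4 are also in the liver list, so these counts are not a separate observation. The 5 red blood cell markers ranged from 6.05 to 9.21, 6.49 to 8.23 and 7.35 to 9.35 in the same order of groups, and 0 of 5 passed in any comparison. The 4 platelet and megakaryocyte markers ranged from 2.31 to 3.88, 2.97 to 3.67 and 2.07 to 3.63, with 0 of 4 passing. Over all assays 1.48% passed for tumor minus tumor-free, 0.592% for tumor-free minus wild type and 8.28% for tumor minus wild type. The 5 myeloid and lymphoid markers ranged from 1.30 to 4.24 in tumor mice and from 1.83 to 2.60 in wild-type mice, and the tumor-free mice lay between 2.01 and the highest tumor mouse. Of these, 0 passed between tumor and tumor-free mice, and against wild type miR-223-3p rose (1.96, limma adjusted p = 0.0333) and miR-142-3p fell (-3.91, adjusted p = 0.0467) in tumor mice. In that comparison 4.14% of all assays were called in each direction. miR-223-3p no longer passed when scaled to reference miRNAs (1.70, adjusted p = 0.165) or to spike-ins (0.69, adjusted p = 0.656), or as raw Ct (0.58, adjusted p = 0.7), and both calls were lost at equal index (adjusted p = 0.0661 and 0.125). With spike-ins and as raw Ct 0 of the 338 assays were called higher, and the median assay stood at -1.08 and -1.22. All markers were detected in all mice except miR-155-5p in 1 tumor mouse. The part of these cell types in the differences of miR-455 was not tested.

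In 4 mice, tumor-free replicates 4, 5 and 7 and tumor replicate 1, the deposited values have 1 ending only, and in the other 13 they have 2. The sources used here do not say whether this marks a run. Among the 13 mice, the 6 tumor mice minus the 4 tumor-free mice gave -2.95 for miR-455-3p and -0.95 for miR-455-5p. Among the 4 mice, the 1 tumor mouse minus the 3 tumor-free mice gave -2.32 and -0.82. The wild-type mice are all among the 13, where tumor minus wild type was -3.54 and -1.68 and tumor-free minus wild type -0.59 and -0.73. With the endings as a block, the 3p arm kept its limma call between tumor and wild-type mice (-3.48, adjusted p = 0.014).

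Some tumor and tumor-free mice share a number in their labels, whose meaning the sources used here do not give. For the number 77, the 2 tumor mice minus the 1 tumor-free mouse gave -2.25 for miR-455-3p and -0.56 for miR-455-5p. For the number 85, the 1 tumor mouse minus the 2 tumor-free mice gave -3.43 and -1.73. Both arms were lower in the tumor mice within both numbers. This comparison chose the arms and the mice are few, so nothing is read from it.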

How the data were processed

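The members and lists were chosen with earlier results of these data known. The deposited table holds quantification cycles (Ct) of 357 miRNA and 8 control assays in 17 mice, not normalized to a reference RNA per its name. Per the labels' protocols, RNA from 50 µL of serum was reverse transcribed and run for 40 cycles of SYBR Green PCR on 2 serum panel plates. Threshold, plate calibration and detection limit are not given in the sources used here. A blank cell counted as no detection. The value endings split the assays into sets of 245 and 120, taken as the plates.

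Levels (log2 scale) were computed as described with the results, from the deposited Ct values. All 3 groups entered 1 fit in limma 3.58.1 (R 4.3.3; lmFit, eBayes), two-sided, over 338 assays, with Benjamini-Hochberg adjustment within each comparison and a threshold of 0.05. The fit was checked on simulated data. The arm difference was compared by exact permutation of group means. Correlations used 100000 random reorderings within groups and 5 relations. Fold sizes assume doubling in each cycle. Lists held 12, 14 and 10 miRNAs. The genes named were both arms, the 5 assays most like each (detected with it in at least 15 mice), the 3 hairpins at each end of the arm correlation and the 2 most abundant of each list. Python 3.11.15, numpy 2.4.6, pandas 2.3.3, scipy 1.17.1 and RNAduplex 2.7.2 were used. Of 317 mouse assays, 260 matched a RefSeq mature name. The precision is limited by the number of mice, 3 in wild type.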

Additional observations from a re-analysis of the deposited data

How the results depend on the processing

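Over 249 combinations of result and alternative, 234 kept the direction and the side of the threshold (or, without a test, moved by less than 1 SD), and 0 changed direction. For the correlation between the arms the side was read from the unadjusted permutation p (0.0345 with all mice), although the adjusted p of 0.0575 did not pass. In part of the 249 combinations the difference itself could not move, so the counts here overstate what was tried. Leaving out a mouse outside the comparison left it unchanged, as did filling missing values, since neither arm had any. Tumor minus tumor-free, miR-455-3p ranged from -3.03 to -2.28 and miR-455-5p from -1.37 to -0.88, the arm difference from -1.94 to -1.28. Tumor-free minus wild type, neither arm passed in any of 29 alternatives (-2.01 to -0.59 and -1.76 to -0.12), and the arm difference ranged from -0.53 to -0.04. Tumor minus wild type, miR-455-3p kept its call in 27 of 29, with limma adjusted p from 0.000139. It was lost with exact permutation (-3.54, adjusted p = 0.201), where its unadjusted p was already the smallest possible. Without each mouse in turn the difference of the 3p arm ranged from -4.02 to -3.20. miR-455-5p passed in 5 of 29: with a limit of Ct 35 (-1.72), at equal hemolysis index (-2.13) and without 1 mouse in 3 cases (range -2.13 to -1.13 without each mouse). The arm difference passed in 0 of 20 (-2.19 to -1.53). The correlation between the arms ranged from 0.40 to 0.60 without each mouse in turn and had an unadjusted p under 0.05 in 9 of 17 cases. The causes were not tested.

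Raw Ct, spike-ins and reference miRNAs shift all assays together: against wild type the median assay stood at -1.07 and -1.22 (tumor-free and tumor mice, raw Ct) and -1.19 and -1.08 (spike-ins). Relative to that median, miR-455-3p in tumor mice stood between -3.73 and -3.70 under all 5 scalings. A scaling adds the same constant to every assay of a mouse. This near-equality was therefore fixed in advance, and nothing is read from it. Calls over all assays between tumor and tumor-free mice numbered 0 with raw Ct, spike-ins or reference miRNAs (limma) and 13 at equal hemolysis index, against 5. Those between tumor-free and wild-type mice numbered 0 to 5, against 2, and those between tumor and wild-type mice 15 with raw Ct and 8 with spike-ins, against 28. The replicate numbers only follow the order of deposit and pair no mice. With the numbers that some labels share as a random block, chosen after seeing the data (consensus correlation 0.07), no call of either arm changed (tumor minus wild type -3.51, limma adjusted p = 0.00935, and -1.60, adjusted p = 0.0561). No value of either arm, its Ct, the arm difference or the serum measures lay apart from its group by Dixon's criterion, in 18 sets of 7 mice. Ct values near 35 in tumor mice limit the precision of both arms.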
